A study of Mus musculus with 64 samples.

Results

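Cardiac fibroblasts of the mouse responded to myocardial infarction (MI) far more strongly at postnatal day 56 (P56) than at postnatal day 1 (P1), and the results below describe that difference gene by gene. For each gene the change from sham operation to MI at P1 was subtracted from the same change at P56, so that a positive value stands for a higher response in the adult. The contrast used 16 of the 64 libraries of the series, 4 in each of 4 groups, and was computed for the 15729 genes that reached 1 CPM, a read count scaled to library size, in at least 4 of the 16. The other libraries of the series came from endothelial cells, leukocytes and cardiomyocytes, 16 of each.

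The fibroblasts came from CD1 mice with no genetic modification named in the labels, and all were isolated 3 days after surgery. P1 pups underwent MI surgery, and sham pups had the operation without the infarct. The adults were males operated on at 8 weeks, and in the MI group the left anterior descending artery was ligated permanently. Each neonatal pool held 6 ventricles, which were digested under stirring with Liberase, whereas adult hearts were perfused with enzyme through the aorta. The non-myocyte layer of a Percoll gradient was then sorted for cells positive for CD90, the Thy1 surface protein, and negative for the leukocyte antigen CD45 and the endothelial antigen CD31. Total RNA depleted of ribosomal RNA was sequenced as stranded libraries with 50-base single-end reads. Age was therefore bound up with the isolation procedure and possibly with sex, and these cannot be told apart. The labels do not say that the replicates of a group came from separate animals or pools, and the p-values therefore reflect library-to-library spread, part of which may be technical.

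Fibroblasts make and maintain the collagen matrix of the heart. After an infarct in the adult, resting fibroblasts enter the cell cycle, lay down a provisional matrix, acquire contractile proteins as myofibroblasts and build a scar, whereas the newborn mouse heart can replace lost muscle with little scarring. In the days after birth fibroblasts of the growing ventricle already divide and deposit matrix without injury.

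The fibroblast libraries held 9.80 to 27.5 M reads (M, 1e6) recovered from the deposited values (median 20.8 M), and 3 reads corresponded to 0.102 to 0.409 CPM. Levels are given in the deposited CPM, with replicates 1 to 4 in order, and responses as log2 differences of (CPM + 0.5) ± standard error, a scale that understates the change of low genes. In 3 P1 libraries 18S ribosomal RNA stood apart: it took 26.1% of the reads of sham replicate 4, 13.5% of MI replicate 1 and 8.98% of MI replicate 2 against a median of 0.0744%. Among adult libraries, MI replicate 2 lay between the sham group and the other MI libraries for many genes. The 13 fibroblast markers were summed to check the label: they ranged from 60710 to 81830 CPM over all 4 groups and overlapped in all of them. Their members went both ways beneath that sum, with 4 rising and 5 falling at P56. For the difference 5 were called higher and 3 lower (range -1.42 to 2.08). These counts were 3 and 3 without the libraries rich in 18S RNA and 4 and 5 without adult MI replicate 2. Between the sham groups the member Gsn was higher at P56 and Col1a1 lower, so overlapping sums do not show equal fibroblast content. The 14 cardiomyocyte markers, by contrast, summed to 290 to 518 CPM in P1 sham, 467 to 811 in P1 MI, 2846 to 6004 in P56 sham and 246 to 1058 in P56 MI, with no marker at 0 in any group. Pan-leukocyte markers summed to 14.9 to 38.8 CPM over all libraries. In bulk RNA, fewer cells of a type and less RNA per cell cannot be told apart.

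**Figure D1:**
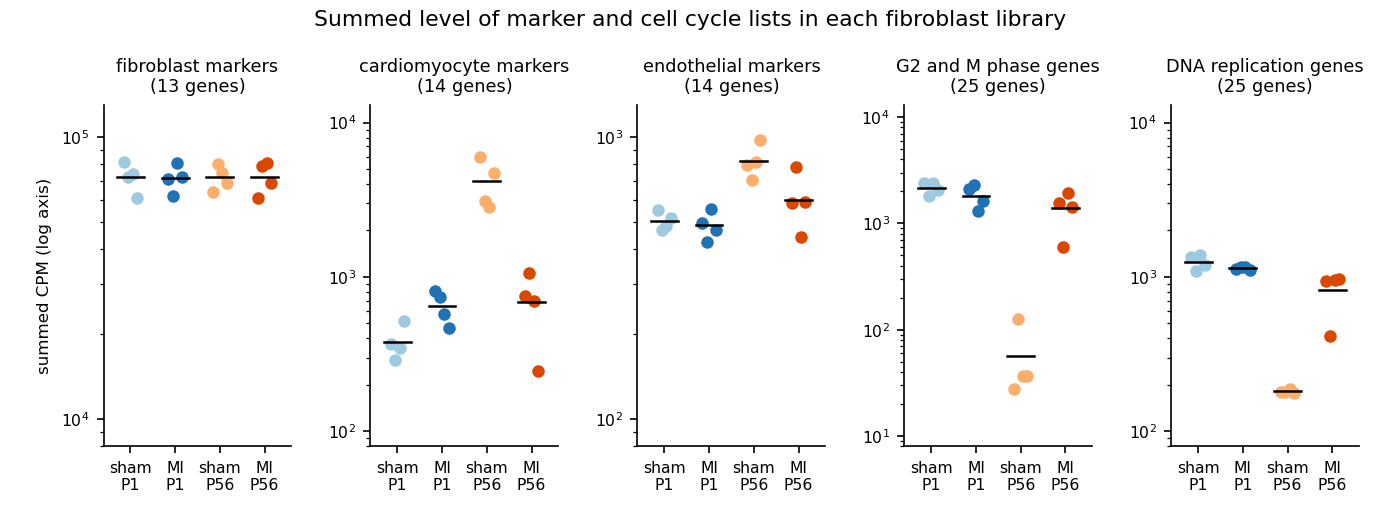
Summed CPM (log axes) of 5 gene lists in each of the 16 fibroblast libraries, by group; points are libraries and bars group means. The summed fibroblast markers overlap in all groups, cardiomyocyte markers are highest in P56 sham (2846 to 6004 CPM), and the cell cycle sums are lowest in P56 sham, where replicate 2 is the highest for the G2 and M phase genes (125.4 CPM).

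At the threshold of 0.05 on the adjusted p, limma called the difference between ages for 4989 of 15729 genes (31.7%). The response at P56 was the higher one for 2550 (16.2%) and the lower one for 2439 (15.5%). The separate responses were unequal in size. At P56 MI changed 7868 genes (50.0%), 3907 upward (24.8%) and 3961 downward (25.2%), whereas at P1 it changed 372 (2.37%), 313 upward (1.99%) and 59 downward (0.375%). The median absolute response was 0.37 on the log2 scale at P56 and 0.13 at P1, and 1886 against 257 genes moved at least 2-fold. Across genes the responses correlated with a Pearson r of 0.128, a description only, since genes are not independent replicates.

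Most of the called genes had a call at P56 and none at P1. A missing call does not show that a gene was unmoved at P1. Tnc, Acta2 and Timp1, below, had separate P1 groups without a call. Of the 2550 higher genes, 2382 rose at P56 with no call at P1, 28 rose at both ages and 4 rose at P56 while falling at P1. Of the 2439 lower genes, 2099 fell at P56 with no call at P1, 95 rose at P1 with no call at P56, and 42 rose at P1 while falling at P56. The starting levels differed as well: of the 2550 higher genes, 2436 had a lower mean in P56 sham than in P1 sham, and 1522 still had a lower mean in P56 MI than in P1 sham. Of the 2439 lower genes, 125 had a lower mean in P56 sham than in P1 sham. Some called genes had almost no reads at one age, so that the difference is the change at the other age alone: both P1 means were at or below 0.409 CPM, the highest level that 3 reads stand for, for 11 higher and 91 lower genes, and both P56 means for 24 and 11. The median difference over all genes tested was -0.02, which serves as the reference for the list medians below. The shares of all genes called, 16.2% higher and 15.5% lower, are the reference for the list counts. Without the 3 libraries rich in 18S RNA, 2298 genes were higher and 2040 lower, and 3682 of the original 4989 calls were shared (73.8%). The P1 response then gave 174 higher and 470 lower genes in place of 313 and 59, and leaving out neonatal libraries in turn gave 129 to 248 and 15 to 77, so the P1 counts depend on single libraries (neonatal MI replicate 1 and sham replicate 2 gave the lowest counts).

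**Figure D2:**
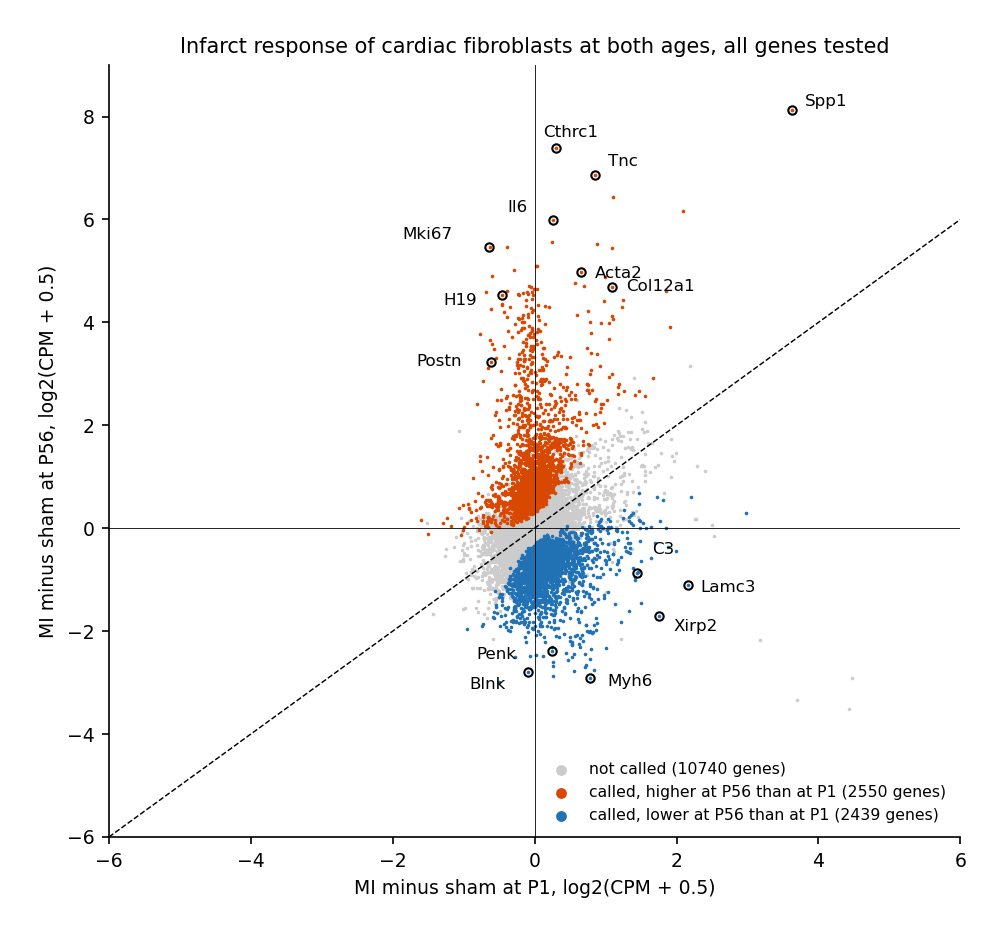
Response to MI at P1 (x axis) and at P56 (y axis) for all 15729 genes tested, as log2(CPM + 0.5) differences; colours mark the 2550 genes called higher and the 2439 called lower at P56 than at P1, and the dashed line marks equal responses. The cloud is taller than wide, with Cthrc1, Tnc and Mki67 far above the line and Myh6 and Lamc3 below it.

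Genes of the cell cycle differed as a block. All 25 of 25 G2 and M phase genes tested and all 25 of 25 DNA replication genes were called higher, with medians of 4.33 and 2.14, and every one of them rose at P56. At P1 limma called none of either list, as did edgeR and DESeq2 on recovered reads, and at an unadjusted p under 0.05 limma gave 0 G2 and M phase genes and 1 replication gene, lower. The counts for the difference stayed at 25 and 25 without the libraries rich in 18S RNA and without adult MI replicate 2. The level reached was the neonatal one or less: in P56 MI the mean was below that of P1 sham for 23 of the 25 G2 and M phase genes and for 24 of the 25 replication genes. The 25 G2 and M phase genes summed to 1826 to 2393 CPM in P1 sham, 1297 to 2283 in P1 MI, 27.5 to 125 in P56 sham and 595 to 1943 in P56 MI, so the P1 groups overlapped and the P56 groups did not.

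Promoters of these genes are shown because both lists moved as a block and because 2 short elements are known from G2 and M phase promoters, the CCAAT box and the cell cycle homology region (CHR). The sequences are the 250 bases before the RefSeq start on GRCm38.p6, read 5′ to 3′ on the gene's strand. In the first 3, capitals mark CCAAT and the CHR letters TTTGAA on either strand. In the Mcm5 promoter they mark the E2F letters TTGGCGC or TTCGCGC on either strand, 2 of whose matches overlap. The promoters shown are among those with the most matches, with 2 CHR matches in each of the first 3 and 3 E2F matches in Mcm5. The same stretch of Ccnb1, Aurka, Plk1 and Bub1, among others, holds no CHR letters. That of Mcm2, Mcm3, Mcm7 and Pcna, among others, holds no E2F letters. The regions are chr10:69352913-69353162 on the minus strand for Cdk1, chr11:99024190-99024439 on the minus strand for Top2a, chr7:135716380-135716629 on the minus strand for Mki67 and chr8:75109259-75109508 on the plus strand for Mcm5.
Cdk1: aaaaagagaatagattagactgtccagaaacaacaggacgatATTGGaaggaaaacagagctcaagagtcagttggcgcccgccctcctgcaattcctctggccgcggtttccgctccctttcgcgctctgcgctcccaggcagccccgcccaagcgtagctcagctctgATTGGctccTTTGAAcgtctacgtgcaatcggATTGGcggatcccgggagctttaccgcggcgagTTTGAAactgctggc
Top2a: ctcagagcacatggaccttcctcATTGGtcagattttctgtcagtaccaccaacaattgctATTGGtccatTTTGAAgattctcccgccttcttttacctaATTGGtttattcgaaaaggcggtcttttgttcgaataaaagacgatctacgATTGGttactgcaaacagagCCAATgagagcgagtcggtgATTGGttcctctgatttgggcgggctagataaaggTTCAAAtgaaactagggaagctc
Mki67: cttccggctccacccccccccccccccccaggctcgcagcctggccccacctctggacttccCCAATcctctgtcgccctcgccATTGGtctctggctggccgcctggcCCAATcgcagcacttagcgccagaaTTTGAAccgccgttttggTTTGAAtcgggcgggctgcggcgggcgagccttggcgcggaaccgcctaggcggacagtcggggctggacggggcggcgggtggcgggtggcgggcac
Mcm5: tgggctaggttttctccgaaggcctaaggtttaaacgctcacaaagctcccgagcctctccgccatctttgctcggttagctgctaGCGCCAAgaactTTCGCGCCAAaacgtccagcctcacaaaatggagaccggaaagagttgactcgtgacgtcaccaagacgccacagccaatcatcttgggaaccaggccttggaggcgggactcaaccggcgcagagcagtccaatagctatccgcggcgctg

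The windows searched ran from 250 bases before to 50 after the start, and so were longer than the stretches printed above. CHR letters occurred in 15 of the 21 G2 and M phase promoters present in the RefSeq table (71.4%), against 11.7% of 10489 promoters of tested genes and 17.9% of all 32851 in the table. CCAAT occurred in 18 of 21 (85.7%), against 38.2% and 37.4%, and both elements together in 14 of 21 (66.7%), against 4.89% and 6.95%. The E2F letters occurred in 7 of 20 replication promoters (35.0%), against 7.04% and 3.89%. A match of letters is a description of the window, not evidence that a factor bound there.

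Mki67 (ENSMUSG00000031004, chromosome 7, 135689788 to 135716379), a protein of dividing cells, had the largest difference of the list. Its level was 519, 404, 522 and 470 CPM in P1 sham, 478, 505, 135 and 270 in P1 MI, 2.39, 23.8, 4.09 and 3.51 in P56 sham and 330, 121, 421 and 288 in P56 MI. Every adult MI library exceeded every adult sham library and the P1 groups overlapped, with P56 sham replicate 2 the highest and P1 MI replicate 3 the lowest of their groups. The response was 5.46 ± 0.55 at P56 and -0.64 ± 0.55 at P1, and the difference was 6.10 ± 0.77 (limma adjusted p 3.45e-05). Top2a, the topoisomerase that untangles chromosomes, differed by 5.85 ± 0.70 (limma adjusted p 2e-05), and Bub1, a kinase of the spindle checkpoint, by 5.50 ± 0.54 (4.24e-06).

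Cdk1 (ENSMUSG00000019942, chromosome 10, 69336635 to 69352938), the kinase that drives entry into mitosis, stood at 89.5, 68.0, 90.9 and 82.4 CPM in P1 sham and 86.8, 99.4, 76.7 and 74.6 in P1 MI. In P56 sham it was 0.388, 2.74, 0.518 and 0.514 CPM, and in P56 MI 54.8, 20.0, 65.9 and 53.3. The adult groups were separate, the neonatal ones overlapped, and all 4 adult MI libraries stayed below every neonatal one. The difference was 5.07 ± 0.51 (limma adjusted p 5.42e-06), from 5.09 at P56 and 0.03 at P1. The linker histone genes Hist1h1b (5.32) and Hist1h1a (5.08) and the spindle genes Kntc1 (5.32) and Cenpe (5.27) were also among the 12 largest differences of well expressed genes.

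The replication genes covered licensing, fork and nucleotide supply. Mcm5 (ENSMUSG00000005410, chromosome 8, 75109528 to 75128439), a subunit of the replicative helicase, was at 91.3, 71.5, 94.3 and 82.3 CPM in P1 sham, 76.8, 85.8, 89.5 and 76.2 in P1 MI, 3.17, 3.57, 3.51 and 4.63 in P56 sham and 78.6, 26.7, 75.6 and 75.5 in P56 MI. The adult MI libraries other than replicate 2 were close together at the lower end of the neonatal range. The difference was 3.87 ± 0.35 (limma adjusted p 2.54e-06). Uhrf1, which carries DNA methylation over to new strands, differed by 4.74 ± 0.41, Mcm10 by 3.81 ± 0.39 and Gins2 by 3.23 ± 0.36, all with P1 responses between -0.22 and 0.05. The polymerase subunit Pole (3.61) and the ribonucleotide reductase subunits Rrm2 (3.57) and Rrm1 (2.12) followed.

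The difference between ages was also computed in the other populations and compared in one fit of all 64 libraries and 18344 genes. Limma called 512 genes (2.79%) against endothelial cells, 3525 (19.2%) against leukocytes and 2098 (11.4%) against cardiomyocytes. Of the 25 G2 and M phase genes, 21 had a higher difference in fibroblasts than in endothelial cells (1.72% of all genes did), 21 than in leukocytes (9.32%) and 19 than in cardiomyocytes (4.58%), and none a lower one (1.07%, 9.89% and 6.85% of all genes). The same genes had own medians of 1.94 in endothelial cells, 1.83 in leukocytes and 2.24 in cardiomyocytes. Of the replication genes 12, 6 and 13 were higher in fibroblasts. For Mki67 the excess was 4.03 over endothelial cells (limma adjusted p 0.00885), 4.12 over leukocytes (0.00117) and 3.81 over cardiomyocytes (0.00573).

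**Figure D3:**
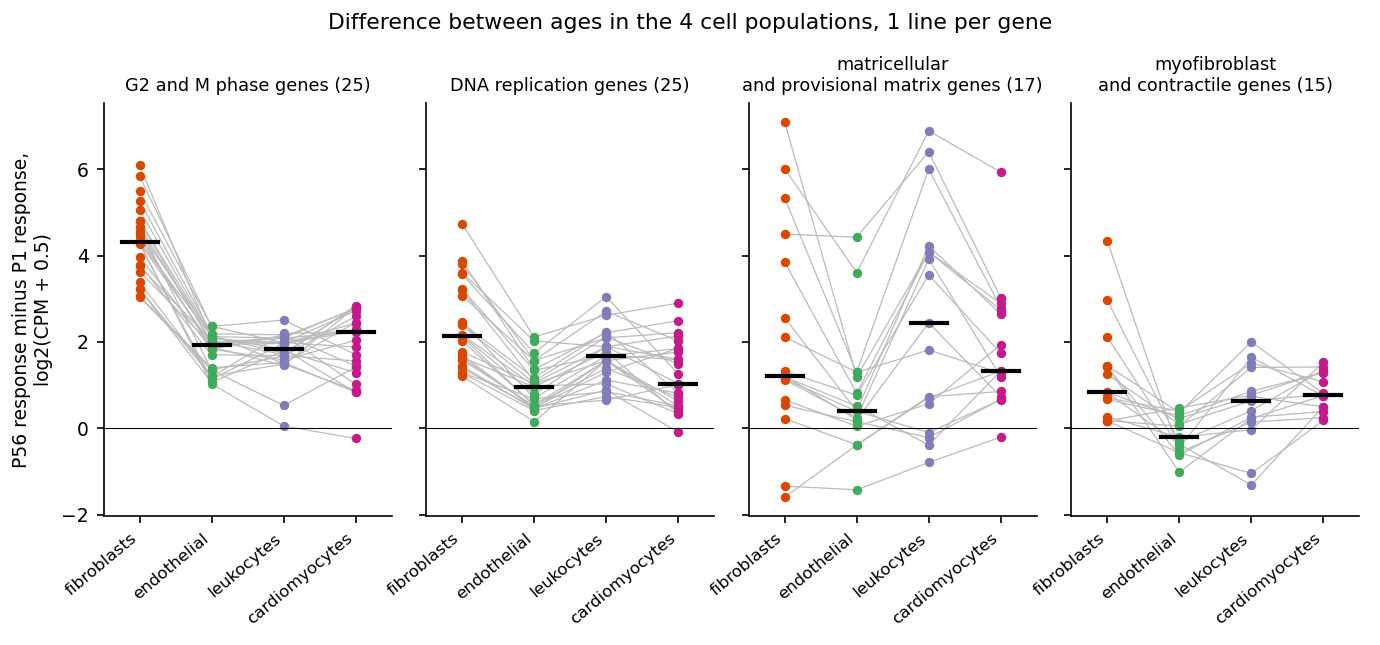
P56 response minus P1 response, as log2(CPM + 0.5), of the members of 4 gene lists in the 4 cell populations; each grey line joins the values of 1 gene and black bars are medians. The G2 and M phase genes have a median of 4.33 in fibroblasts against 1.83 to 2.24 elsewhere. The myofibroblast genes have medians of 0.83 in fibroblasts, -0.21 in endothelial cells, 0.64 in leukocytes and 0.78 in cardiomyocytes.

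Matrix genes of the early scar came next. Of 17 matricellular and provisional matrix genes tested, 10 were called higher and 2 lower (median 1.22). At P56 14 rose and 1 fell, and at P1 4 rose and none fell. In fibroblasts the difference was higher than in endothelial cells for 4 members and lower for none. The counts were 2 and 6 against leukocytes and 2 and 1 against cardiomyocytes. Own medians of the list were 0.40 in endothelial cells, 2.44 in leukocytes and 1.33 in cardiomyocytes. Of all genes 1.72%, 9.32% and 4.58% were higher against the 3 populations in this order, and 1.07%, 9.89% and 6.85% lower. The largest difference of any called and well expressed gene belonged to Cthrc1 (ENSMUSG00000054196, chromosome 15, 39076932 to 39087121), a secreted protein of activated fibroblasts. Its level was 83.0, 72.7, 72.2 and 86.2 CPM in P1 sham, 93.6, 104, 99.4 and 89.0 in P1 MI, 0.0646, 0.131, 0.518 and 0.0428 in P56 sham and 87.8, 66.7, 204 and 129 in P56 MI. The adult sham values rest on 1, 3, 9 and 1 reads, so the size of the difference, 7.10 ± 0.36 (limma adjusted p 8.31e-09), depends on the 0.5 CPM added. Adult MI libraries overlapped the neonatal range, with replicate 2 below it and replicates 3 and 4 above it. The difference exceeded that in endothelial cells by 5.91 (limma adjusted p 1.03e-07), in leukocytes by 3.02 (0.000972) and in cardiomyocytes by 4.35 (3.16e-05).

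Tnc (ENSMUSG00000028364, chromosome 4, 63959785 to 64047015), the tenascin of the provisional matrix, measured 534, 518, 577 and 500 CPM in P1 sham, 1002, 985, 911 and 948 in P1 MI, 21.0, 57.6, 34.6 and 14.7 in P56 sham and 3833, 1642, 5567 and 3541 in P56 MI. Unlike the cell cycle genes it passed beyond its neonatal level, and all 4 groups were separate. The P1 response of 0.85 ± 0.34 did not pass the test (limma adjusted p 0.244), the P56 response was 6.87 ± 0.34, and the difference was 6.01 ± 0.49 (1.4e-06). It did not pass against endothelial cells (excess 2.41 ± 0.82, limma adjusted p 0.0942), leukocytes (-0.88, 0.494) or cardiomyocytes (0.08, 0.963).

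Postn (ENSMUSG00000027750, chromosome 3, 54361109 to 54391037), the periostin gene of activated fibroblasts, did not regain its neonatal sham level. It stood at 11160, 10460, 10090 and 11160 CPM in P1 sham, 9794, 9918, 3280 and 7499 in P1 MI, 493, 1037, 651 and 388 in P56 sham and 6259, 3176, 9475 and 5385 in P56 MI. Neonatal MI libraries all lay below neonatal sham ones, adult MI libraries above adult sham ones, and no adult MI library reached the neonatal sham range. The neonatal and adult MI groups overlapped each other. The responses were -0.61 ± 0.38 at P1 (limma adjusted p 0.501) and 3.23 ± 0.38 at P56, and the difference was 3.85 ± 0.53 (7.95e-05).

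Spp1 and Wisp1, both secreted, rose at both ages and more in the adult. Spp1 (ENSMUSG00000029304, chromosome 5, 104435118 to 104441050), which encodes osteopontin, was at 0.408, 1.09, 1.82 and 2.18 CPM in P1 sham, 23.4, 43.2, 8.21 and 22.5 in P1 MI, 0.0646, 0.131, 0.633 and 0.171 in P56 sham and 323, 69.2, 154 and 472 in P56 MI. It rose by 3.63 ± 0.53 at P1 (limma adjusted p 0.00191) and by 8.13 ± 0.53 at P56, a difference of 4.50 ± 0.75 (0.000403). The difference in endothelial cells was of the same size (4.43), with an excess in fibroblasts of 0.07 ± 1.55 (limma adjusted p 0.991), a standard error too large to show equal responses. Wisp1, a CCN family protein that follows Wnt signals, rose from a mean of 20.2 ± 2.63 (SD, n = 4) to 43.9 ± 4.62 CPM at P1 (1.10 ± 0.28, limma adjusted p 0.0429) and from 0.927 ± 0.113 to 140 ± 82.5 at P56, a difference of 5.33 ± 0.39 (4.84e-07). Unlike Spp1, its difference exceeded that in each other population by 3.52 to 4.05 (largest limma adjusted p 8.36e-05).

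Fibronectin, Fn1, differed by 2.56 ± 0.31 (limma adjusted p 2.28e-05), from a mean of 3636 ± 467 to 4995 ± 1025 CPM at P1 and from 402 ± 75.1 to 3310 ± 1158 at P56. The 2 members called lower were Thbs2, a thrombospondin, at -1.34 ± 0.26 (limma adjusted p 0.00132) and Wisp2 at -1.60 ± 0.34 (0.0027). Thbs2 fell at P56 (-1.33) and was level at P1 (0.01, not called), and Wisp2 rose at both ages, by 2.20 at P1 and 0.60 at P56.

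**Figure D4:**
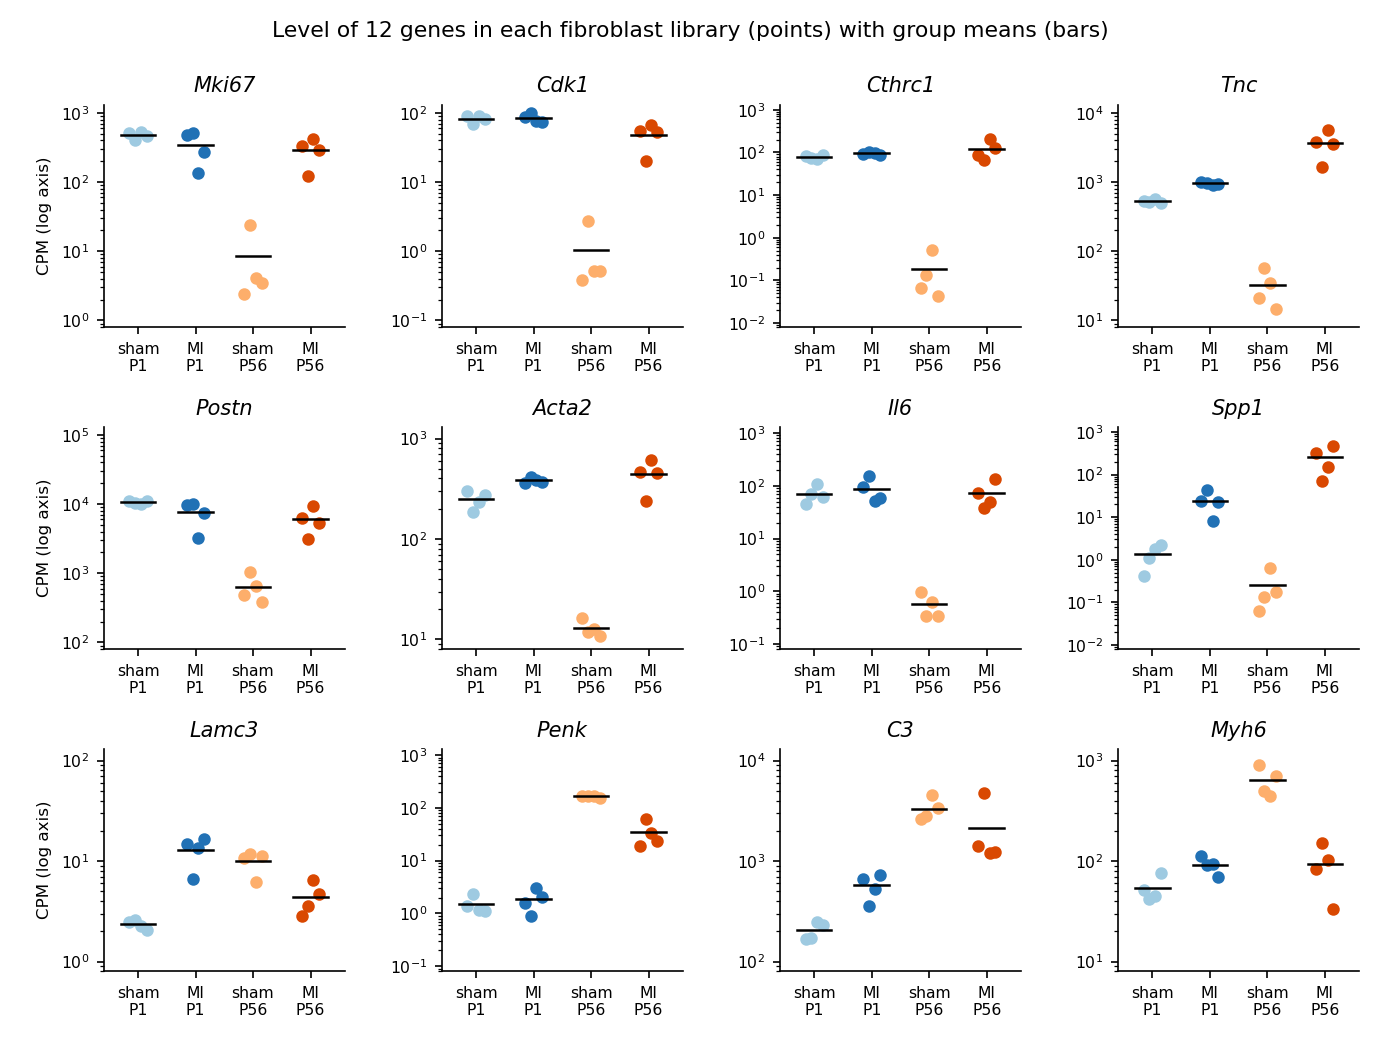
CPM (log axes) of 12 genes in each of the 16 fibroblast libraries; points are libraries, in replicate order within a group, and bars group means. Mki67, Cdk1, Cthrc1, Acta2 and Il6 are lowest in P56 sham; in P56 MI every Cdk1 library is below the P1 libraries, 2 Cthrc1 and 3 Acta2 libraries are above them, as are all 4 of Tnc and of Spp1. Penk and Myh6 are highest in P56 sham and C3 in adult MI replicate 2.

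Of 14 fibrillar and fibril-associated collagens, 9 were called higher and none lower (median 1.12), and 11 rose at P56 and 2 at P1. Col1a1 (ENSMUSG00000001506, chromosome 11, 94936224 to 94953042), a chain of type I collagen, was at 9929, 6932, 7916 and 5826 CPM in P1 sham, 9831, 7908, 11670 and 7523 in P1 MI, 991, 2270, 1451 and 1354 in P56 sham and 5619, 5659, 10220 and 9454 in P56 MI. Adult MI libraries overlapped the neonatal ones, and the adult sham libraries lay below all others. The difference was 2.08 ± 0.41 (limma adjusted p 0.00136), beside 1.58 ± 0.48 for Col3a1 (0.0207) and 1.37 ± 0.39 for Col1a2 (0.0143). The fibril-associated Col12a1 rose at both ages, by 1.09 at P1 (limma adjusted p 0.0388) and 4.68 at P56, with a difference of 3.59 ± 0.38, and the minor fibrillar chain Col11a1 differed by 4.64 ± 0.59. Without the libraries rich in 18S RNA 8 collagens were called. Col11a1 and Col12a1 alone of the 14 had a higher difference in fibroblasts than in endothelial cells, by 4.17 and 2.96 (limma adjusted p 0.00541 and 0.0158). Against leukocytes none of the 14 was higher or lower, and against cardiomyocytes 1 was higher and none lower. Own medians of the 14 were 0.19 in endothelial cells, 1.99 in leukocytes and 2.02 in cardiomyocytes, so the rise was not particular to fibroblasts.

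Enzymes that process collagen moved with it. Of 19 such genes 14 were called higher and 1, the transglutaminase Tgm2, lower (median 0.78), and 17 rose at P56 against 2 at P1. Lox, which crosslinks collagen, stood at a mean of 224 ± 9.81 CPM in P1 sham, 323 ± 67.2 in P1 MI, 91.3 ± 22.6 in P56 sham and 949 ± 325 in P56 MI, so that the adult MI group lay above all others, and differed by 2.83 ± 0.33 (limma adjusted p 1.44e-05). The prolyl hydroxylase subunit P4ha3 differed by 3.23 ± 0.23 (4.84e-07), the lysyl oxidase relative Loxl3 by 1.88 ± 0.28, the foldase Fkbp10 by 1.36 ± 0.23 and the collagen chaperone Serpinh1 by 1.23 ± 0.24. Without the libraries rich in 18S RNA 11 members were higher and 1 lower.

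Proteases and their inhibitors split, with 8 of 18 called higher and 5 lower (median 0.57), or 5 and 4 without the libraries rich in 18S RNA. The lower count was 3 without any one of P1 sham replicates 3 and 4, P1 MI replicates 3 and 4, P56 sham replicate 4 and P56 MI replicates 1, 3 and 4. Timp1, an inhibitor of matrix metalloproteinases, rose from 8.66, 14.8, 20.0 and 8.61 CPM in P56 sham to 733, 264, 612 and 792 in P56 MI. At P1 it was 12.6, 19.4, 25.6 and 18.7 CPM in sham and 43.2, 50.0, 30.5 and 38.0 in MI, groups that did not overlap although the P1 response of 1.08 ± 0.32 did not pass (limma adjusted p 0.0969). The difference was 4.36 ± 0.46 (6.59e-06). Adamts4, which cuts aggrecan and versican, differed by 3.68 ± 0.53. Timp4 (-2.15 ± 0.30), the aggrecanase Adamts5 (-1.10 ± 0.26) and the urokinase gene Plau (-0.94 ± 0.21) were lower, each with a fall called at P56 and no call at P1. Proteoglycan and elastic fibre genes also split, 5 higher and 5 lower of 19 (median 0.29), against 16.2% and 15.5% of all genes. The microfibril gene Mfap5 differed by 1.64 ± 0.24, while Fbln5 (-1.03 ± 0.19), Podn (-1.56 ± 0.33) and elastin, Eln (-1.21 ± 0.35), were lower. Basement membrane genes gave 1 call of 12, Lama2 at -1.05 ± 0.23 (limma adjusted p 0.00284), while edgeR gave 2 and DESeq2 5 on recovered reads. It was 2 without P1 MI replicate 2, P56 sham replicate 1 or the libraries rich in 18S RNA and 3 without P56 MI replicate 2.

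Myofibroblast and contractile genes were called higher in 10 of 15 cases and lower in none (median 0.83), with 14 rising at P56 and 4 at P1. Acta2 (ENSMUSG00000035783, chromosome 19, 34241090 to 34255336), which encodes smooth muscle actin, was at 298, 186, 231 and 276 CPM in P1 sham, 361, 415, 390 and 368 in P1 MI, 16.4, 11.8, 12.6 and 10.8 in P56 sham and 462, 241, 617 and 453 in P56 MI. Sham and MI were separate at both ages, and the MI groups overlapped each other. The P1 response of 0.65 ± 0.22 did not pass (limma adjusted p 0.148), the P56 response was 4.99 ± 0.22, and the difference was 4.34 ± 0.31 (4.84e-07). It exceeded the difference in endothelial cells by 4.90 (limma adjusted p 1.56e-06), in leukocytes by 4.20 (2.4e-06) and in cardiomyocytes by 4.10 (2.39e-05). Tagln, an actin-binding protein of smooth muscle, rose at both ages, by 1.11 ± 0.19 at P1 (limma adjusted p 0.00456) and 4.08 ± 0.19 at P56, a difference of 2.97 ± 0.27 (2.54e-06). The tropomyosins Tpm2 (2.11 ± 0.26) and Tpm4 (1.45 ± 0.19) followed. Of the list, 6 members had a higher difference in fibroblasts than in endothelial cells, whose own median was -0.21, and none a lower one. Against leukocytes 4 were higher and 1 lower, and against cardiomyocytes 1 and 2, with own medians of 0.64 and 0.78. Of all genes 1.72%, 9.32% and 4.58% were higher against the 3 populations in this order, and 1.07%, 9.89% and 6.85% lower. Mural cells also carry several of these proteins, and of 11 mural cell markers 1 was called higher, Myh11 (1.70 ± 0.44), a call lost without the libraries rich in 18S RNA, while the pericyte gene Rgs5 was not (-0.60 ± 0.46, limma adjusted p 0.335). The mural markers summed to 1974 to 3425 CPM in P1 sham, 2253 to 2895 in P1 MI, 2575 to 5689 in P56 sham and 2163 to 3577 in P56 MI, and their part in the result was not tested. Without adult MI replicate 2, 1 mural marker was higher and 2 lower.

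Signals of the transforming growth factor beta family went both ways, with 5 of 20 genes called higher and 3 lower (median 0.32), against 16.2% and 15.5% of all genes. The counts were 9 and 5 without adult MI replicate 2, and 3 were higher without any one of P1 sham replicates 2 and 3, P1 MI replicate 1, P56 sham replicate 1 and P56 MI replicates 1 and 4. The inhibin subunits differed in opposite directions, Inhba by 1.49 ± 0.42 and Inhbb by -1.62 ± 0.38. Bmp4, a bone morphogenetic protein, fell at P56 from a mean of 61.0 to 20.7 CPM and was level at P1 (29.0 and 27.9), a difference of -1.46 ± 0.27 (limma adjusted p 0.000951). The follistatin-like gene Fstl1 differed by 1.28 ± 0.26 and the latent TGF-beta binding protein Ltbp2, which rose at both ages, by 1.26 ± 0.36. Of 17 Wnt ligands and secreted regulators 3 were higher and 4 lower (median -0.18), against the same shares of all genes. The counts were 1 and 6 without the libraries rich in 18S RNA, and 2 were lower without P56 sham replicate 3, P56 MI replicate 1 or P56 MI replicate 4. The called genes included the antagonist Dkk2 at 2.94 ± 0.33 (limma adjusted p 1.28e-05) and Wnt11 at -1.53 ± 0.32 (0.00205). The Wnt enhancer Rspo1 rose at P1 (1.36) and was at 0.09 at P56, not called, a difference of -1.26 ± 0.37. Growth factors and receptors were called no more often than all genes, 4 higher and 3 lower of 26 (median 0.02) against 31.7%, with 5 lower without adult MI replicate 2 and 1 lower by edgeR. The epidermal growth factor family ligands Ereg (2.95 ± 0.60) and Hbegf (1.55 ± 0.38), the hepatocyte growth factor Hgf (1.97 ± 0.43) and Pdgfc (1.56 ± 0.28) were higher, and the lower genes included Fgf10 (-1.75 ± 0.52) and the receptor gene Pdgfra.

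Cytokines and chemokines were called higher in 9 of 18 cases and lower in 3 (median 1.10). Il6 (ENSMUSG00000025746, chromosome 5, 30013114 to 30019981) had the largest difference. Its level was 45.3, 69.3, 107 and 61.6 CPM in P1 sham, 95.2, 150, 51.2 and 58.7 in P1 MI, 0.969, 0.348, 0.633 and 0.343 in P56 sham and 73.8, 38.0, 49.8 and 133 in P56 MI. The P1 groups and P56 MI all overlapped, and every P56 sham library lay below them. The difference was 5.72 ± 0.53 (limma adjusted p 2.54e-06). It exceeded that of endothelial cells (3.38, 0.00374) and of cardiomyocytes (5.40, 2e-06), but not that of leukocytes (0.30, 0.814). Ccl9, a chemokine for myeloid cells, was at 0.386 to 4.10 CPM in the other 3 groups and at 28.1, 22.9, 50.4 and 55.2 in P56 MI, a difference of 3.89 ± 0.51 (limma adjusted p 4.24e-05). The neutrophil attractants Cxcl5 (3.19 ± 0.60) and Cxcl1 (2.00 ± 0.43) and the alarmin Il33 (1.64 ± 0.27) were higher, and Cxcl14 (-1.44 ± 0.27) and Cxcl16 (-0.72 ± 0.19) lower. Of the 12 pan-leukocyte markers 8 were tested, and limma called none for the difference, with 0 at an unadjusted p under 0.05 and 1 lower by edgeR and by DESeq2. They summed to 16.2 to 22.3 CPM in P1 sham, 26.1 to 37.8 in P1 MI, 14.9 to 22.9 in P56 sham and 26.7 to 38.8 in P56 MI, and their part in the cytokine results was not tested. Of 10 monocyte and macrophage markers tested, 1 was called higher and 3 lower, against 16.2% and 15.5% of all genes. Cd68 (1.46) was the higher one, and Csf1r (-1.32), Cd14 (-1.27) and C1qa (-1.50) the lower ones. At P1 3 of the 10 rose and 1 fell (edgeR 3 and 0, DESeq2 8 and 1), and at P56 2 rose. The lower count was 4 by edgeR, 6 by DESeq2, 5 without adult MI replicate 2 and 1 without the libraries rich in 18S RNA, where the higher call was lost. They summed to 13.2 to 25.3 CPM in P1 sham, 27.7 to 42.0 in P1 MI, 21.5 to 51.5 in P56 sham and 28.6 to 78.1 in P56 MI, and their part was not tested either.

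Immediate early and heat shock genes, which respond quickly to growth signals or stress, were called higher in 10 of 18 cases and lower in none (median 0.97), 8 of 13 immediate early and 2 of 5 heat shock genes. The count was 6 without the libraries rich in 18S RNA, and also without any one of P1 sham replicates 2 and 3, P1 MI replicates 1 and 2 and P56 MI replicate 4. Egr2, an early growth response factor, was at a mean of 136 ± 29.0 CPM in P1 sham, 113 ± 16.5 in P1 MI, 6.41 ± 2.10 in P56 sham and 70.4 ± 34.5 in P56 MI, and differed by 3.49 ± 0.46 (limma adjusted p 4.39e-05). Fos (2.77 ± 0.54), Fosb (2.67 ± 0.64) and Atf3 (2.46 ± 0.39) followed. In P56 MI 15 of the 18 remained below the P1 sham mean. Own medians of the 18 were 1.06 in endothelial cells, 1.48 in leukocytes and 1.25 in cardiomyocytes, so the shift was not particular to fibroblasts. None had a higher or lower difference in fibroblasts than in endothelial cells. Against leukocytes 1 was higher and 3 lower, and against cardiomyocytes none was higher and 1 lower. Immediate early genes also respond to tissue digestion, which differed between the ages, so age and isolation cannot be told apart here.

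Genes of protein production and energy use moved by smaller steps. Of 20 ribosome biogenesis genes 13 were higher and none lower (median 0.52), led by Nop58 (1.77 ± 0.24) and Npm1 (1.69 ± 0.27), both nucleolar proteins, with 19 rising at P56; without the libraries rich in 18S RNA the count was 10. Of 21 endoplasmic reticulum genes 9 were higher and 1 lower (median 0.46), among them the translocon subunit Sec61b (1.50 ± 0.19) and the disulphide isomerase Pdia6 (1.04 ± 0.20), or 5 and 1 without those libraries. The higher count was also 5 without P56 MI replicate 4, and the lower one 3 without P56 MI replicate 2 and 2 without P1 sham replicate 2, P1 MI replicate 1 or 2 or P56 sham replicate 1. Of 16 glycolysis genes 7 were higher and 2 lower (median 0.51). Ldha, lactate dehydrogenase, was at 179, 187, 219 and 199 CPM in P1 sham, 199, 216, 191 and 198 in P1 MI, 74.1, 77.8, 86.5 and 75.7 in P56 sham and 281, 179, 211 and 294 in P56 MI, and differed by 1.55 ± 0.18 (limma adjusted p 1.8e-05). Its adult sham libraries were close together and below all others. The muscle phosphofructokinase Pfkm (-0.89 ± 0.17) and the neuronal enolase Eno2 (-0.80 ± 0.17) were the members called lower. Hypoxia response genes gave 4 higher and 1 lower of 16 (median 0.12), a share close to the 31.7% of all genes, with Hif1a at 1.24 ± 0.22. Their counts were 2 and 0 without the libraries rich in 18S RNA, and ranged from 2 to 5 higher and 0 to 2 lower with 1 library left out; P1 sham replicate 1, P1 MI replicate 1 and P56 sham replicates 1 and 3 were the libraries that moved neither count by over 1.5 times. Of 18 cholesterol synthesis genes 5 were higher (median 0.53), against 16.2% of all genes. The count was 1 without the libraries rich in 18S RNA and 8 without P56 sham replicate 1 or P56 MI replicate 2.

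The genes that differed in the opposite direction included those of the resting fibroblast. Of 24 resting fibroblast genes 14 were called lower and none higher (median -0.91), and 21 fell at P56. At P1 limma and edgeR called none, DESeq2 called 1 higher and 2 lower, and limma gave 1 higher and 5 lower at an unadjusted p under 0.05. For the difference 12 members were lower without the libraries rich in 18S RNA and 11 by edgeR. Penk (ENSMUSG00000045573, chromosome 4, 4133531 to 4138819), the enkephalin precursor, was at 1.36, 2.32, 1.18 and 1.09 CPM in P1 sham, 1.58, 0.910, 3.07 and 2.09 in P1 MI, 166, 170, 170 and 154 in P56 sham and 19.2, 61.7, 33.1 and 24.1 in P56 MI. Adult MI libraries lay below every adult sham library but above every neonatal one, and replicate 2 was the highest of them. The difference was -2.62 ± 0.43 (limma adjusted p 0.00035). Gsn, gelsolin, fell at P56 from a mean of 36270 ± 2068 to 10240 ± 4132 CPM and was 2287 ± 390 and 1676 ± 509 at P1, a difference of -1.42 ± 0.39 (0.012). The methyltransferase Inmt (-2.25 ± 0.36), the dipeptidase Dpep1 (-1.47 ± 0.31), the cortisone reductase Hsd11b1 (-1.78 ± 0.44) and Apoe (-1.67 ± 0.43) followed. Inmt had a mean of 0.00850 CPM in P1 sham against 62.2 in P56 sham, so that it had no measurable neonatal response and its difference is the adult change alone.

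Complement genes split by age in another way. Of 13 tested, 6 were lower and 1 higher (median -0.94), at P56 3 rose and 4 fell, and at P1 4 rose and none fell. The lower count was 3 without P1 sham replicate 1, P1 MI replicate 4 or P56 MI replicate 3 and 2 without P56 sham replicate 3 or P56 MI replicate 1, and the higher one was 2 without P1 sham replicate 4. C3 (ENSMUSG00000024164, chromosome 17, 57203970 to 57228136), the central component, was at 168, 172, 248 and 233 CPM in P1 sham, 669, 360, 524 and 733 in P1 MI, 2609, 2810, 4527 and 3354 in P56 sham and 1422, 4771, 1207 and 1219 in P56 MI. Neonatal MI and sham libraries were separate, and in the adult MI group replicate 2 stood above all sham libraries and the others below them. C3 rose by 1.45 ± 0.36 at P1 (limma adjusted p 0.0392), its P56 response of -0.87 ± 0.36 did not pass (0.0513), and the difference was -2.31 ± 0.50 (0.00282). C4b (-1.63 ± 0.53) and C1s1 (-1.57 ± 0.44) were lower, and the protease Cfi was higher (1.64 ± 0.31), rising at both ages. Interferon-stimulated genes gave 1 call of 21, Oasl2 at -1.05 ± 0.28, and their median was 0.06; 2 were lower without P56 MI replicate 3. Of 14 genes of MHC class I presentation 3 were lower (median -0.35), Tapbp, Nlrc5 and Tap2, against 15.5% of all genes.

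Genes called at both ages with opposite signs were few, 37 of the 3588 called genes that averaged 5 CPM or more in some group, and 33 of them rose at P1 and fell at P56. After the muscle gene Xirp2 (-3.46 ± 0.52) the largest of these was Lamc3 (ENSMUSG00000026840, chromosome 2, 31887291 to 31946539), a laminin gamma chain. It was at 2.45, 2.61, 2.28 and 2.04 CPM in P1 sham, 14.9, 6.57, 13.6 and 16.6 in P1 MI, 10.7, 11.7, 6.22 and 11.2 in P56 sham and 2.83, 3.59, 6.47 and 4.65 in P56 MI. All neonatal MI libraries exceeded the sham ones, and in the adult MI replicate 3 (6.47 CPM) overlapped sham replicate 3 (6.22 CPM). It rose by 2.16 ± 0.27 at P1 (limma adjusted p 0.000421) and fell by 1.11 ± 0.27 at P56 (0.00261), a difference of -3.28 ± 0.38 (1.48e-05). The same difference was lower in fibroblasts than in endothelial cells (-2.43, 0.00652), leukocytes (-1.50, 0.0457) and cardiomyocytes (-2.52, 0.00212). Gpihbp1, which anchors lipoprotein lipase on capillary endothelium, rose by 1.42 at P1 and fell by 1.01 at P56, a difference of -2.43 ± 0.43 (limma adjusted p 0.000641), at levels of 0.204 to 8.35 CPM.

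Of 14 endothelial markers 3 rose at P1, and at P56 1 rose and 1 fell. At an unadjusted p under 0.05 limma gave 10 higher and 1 lower at P1. For the difference none was higher and 4 were lower (28.6%, median -0.83), against 16.2% and 15.5% of all genes. The lower ones were Kdr (-2.13 ± 0.41), Flt1 (-1.72 ± 0.38), Cdh5 (-1.64 ± 0.50) and Tek (-0.82 ± 0.29). The lower count was 6 without adult MI replicate 2, 3 without the libraries rich in 18S RNA and 5 by DESeq2. The 14 endothelial markers summed to 470 to 549 CPM in P1 sham and 425 to 556 in P1 MI. Their sum was 704 to 978 CPM in P56 sham and 441 to 785 in P56 MI, and their part in the result was not tested. The 4 genes that fell at P1 and rose at P56 were Unc13c (2.18 ± 0.25), Arfgef3 (1.84 ± 0.27), Dnm3os (1.36 ± 0.22), a noncoding RNA that holds microRNAs, and Pde12 (1.09 ± 0.18). Unc13c, a vesicle priming factor, was at 7.07, 7.28, 7.13 and 8.31 CPM in P1 sham, 3.98, 4.29, 3.84 and 4.48 in P1 MI, 1.81, 2.09, 1.50 and 1.20 in P56 sham and 5.97, 3.83, 7.34 and 4.05 in P56 MI. Sham and MI were separate at both ages, in opposite order.

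The most negative named differences belonged to transcripts of heart muscle. All 14 cardiomyocyte markers were called lower, between -3.69 and -2.25 (median -3.02), 13 fell at P56, and 1 rose at P1. Myh6 (ENSMUSG00000040752, chromosome 14, 54941981 to 54966927), the cardiac myosin heavy chain, was at 51.2, 41.5, 45.2 and 75.9 CPM in P1 sham, 112, 91.8, 92.8 and 68.6 in P1 MI, 901, 493, 440 and 701 in P56 sham and 84.1, 152, 101 and 33.1 in P56 MI. Adult sham libraries were the highest without overlap, and adult MI libraries overlapped the neonatal range, with replicate 2 above it and replicate 4 below it. The difference was -3.69 ± 0.49 (limma adjusted p 5.42e-05), beside -3.59 ± 0.54 for titin, Ttn, and -3.41 ± 0.38 for myoglobin, Mb. In cardiomyocytes the median difference of the 14 markers was -0.22, and all 14 were lower in fibroblasts than there. Endothelial cells and leukocytes, by contrast, had medians of -1.69 and -1.74. Against these populations 0 and 2 of the 14 were lower in fibroblasts and none higher, so the fall was not particular to fibroblasts. The marker that rose at P1 was the natriuretic peptide gene Nppa (1.88, limma adjusted p 0.00498), which was also the one not called at P56. The muscle genes Xirp2, Ldb3 (-2.28) and Unc45b (-2.27) rose at P1 and fell at P56.

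Genes of fatty acid use moved with these muscle transcripts. Of 20 such genes 14 were called lower and none higher (median -0.68), or 11 without the libraries rich in 18S RNA. The heart fatty acid binding protein Fabp3 differed by -2.74 ± 0.33, Ppargc1a by -1.92 ± 0.39, the nuclear receptor gene Ppara by -1.34 ± 0.27 and the dehydrogenase gene Acadm by -0.84 ± 0.14. Of 25 oxidative phosphorylation genes 1 was higher, Ndufa4 (0.51 ± 0.13), and 3 were lower, the striated muscle isoforms Cox6a2 (-2.74 ± 0.34), Cox8b (-2.02 ± 0.43) and Cox7a1 (-1.90 ± 0.34). The higher count was 6 without P56 MI replicate 2, 2 without P1 sham replicate 2 or 4 or P1 MI replicate 3, 4 by edgeR and 5 by DESeq2. The summed cardiomyocyte markers, given above, were highest in P56 sham, and their part in these results was not tested. Blnk, an adaptor protein of B cells, fell from a mean of 25.4 ± 5.17 CPM in P56 sham to 3.33 ± 1.20 in P56 MI, a difference of -2.70 ± 0.31 (limma adjusted p 1.45e-05), and was the only B cell marker tested; it had almost no reads at P1, so that the difference is the adult change. Schwann cell markers summed to 1251 to 1600 CPM in P56 sham and 519 to 913 in P56 MI. At P1 they summed to 203 to 243 CPM in sham and 81.8 to 198 in MI, so MI lay below sham at both ages. Of 7 tested, 4 fell at P56, and at P1 none was called, with 2 lower at an unadjusted p under 0.05. For the difference 1 of 7 was called, Kcna1 (-1.62 ± 0.56), which had almost no reads at P1. That call was lost in edgeR, without the libraries rich in 18S RNA, and without any one of 10 single libraries, namely P1 sham replicates 2 to 4, P1 MI replicates 2 and 4, P56 sham replicates 1 to 3 and P56 MI replicates 3 and 4.

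Imprinted growth genes, which are active in the growing newborn and largely silenced later, were called higher in 5 of 13 cases and lower in none (median 0.30). H19 (ENSMUSG00000000031, chromosome 7, 142575529 to 142578143), a noncoding RNA, was at 1795, 1995, 1806 and 1781 CPM in P1 sham, 1222, 1018, 1568 and 1638 in P1 MI, 1.16, 1.17, 0.748 and 1.63 in P56 sham and 35.8, 21.9, 88.9 and 29.2 in P56 MI. All 4 groups were separate, and P56 MI remained far below both neonatal groups. The difference was 5.00 ± 0.42 (limma adjusted p 1.55e-06), and it exceeded those of endothelial cells (3.46, 0.001), leukocytes (2.09, 0.0178) and cardiomyocytes (2.98, 0.00212). Plagl1, a zinc finger gene, differed by 2.08 ± 0.36 and the retrotransposon-derived Peg10 by 1.14 ± 0.20. Dlk1 (0.98 ± 0.23) was called through a fall at P1, from a mean of 76.6 to 38.2 CPM, and was at 0.162 and 0.144 in the adult groups, at the level of a few reads, so that its difference is the neonatal change alone. Igf2, which lies beside H19, was not called (0.82 ± 0.37, limma adjusted p 0.0971). In P56 MI the mean of all 13 genes was below that of P1 sham.

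Adhesion genes split, with 6 of 19 higher and 4 lower (median 0.27), against 16.2% and 15.5% of all genes. The counts were 4 and 2 without the libraries rich in 18S RNA and 6 and 6 without adult MI replicate 2. The lower count was 2 without P1 sham replicate 4, P1 MI replicate 1 or 2 or P56 MI replicate 4. Cd44, the receptor for hyaluronan, was at 37.1, 32.0, 40.6 and 48.5 CPM in P1 sham, 49.0, 47.4, 38.0 and 47.0 in P1 MI, 14.4, 15.9, 24.1 and 19.4 in P56 sham and 102, 89.4, 98.5 and 105 in P56 MI. The adult MI libraries lay close together above all others, replicate 2 included, and the difference was 2.21 ± 0.21 (limma adjusted p 3.25e-06). The syndecan Sdc1 (2.50 ± 0.28) and the mesenchymal cadherin Cdh11 (1.33 ± 0.27) were higher. The collagen-binding integrin Itga11 was lower (-1.18 ± 0.27), with a rise called at P1 (1.16) and no call at P56. Among 11 genes of prostaglandin metabolism and signalling, 3 higher and 3 lower (1 lower without P56 sham replicate 3), the inducible cyclooxygenase Ptgs2 differed by 2.50 ± 0.59 and the receptor gene Ptgfr by -1.73 ± 0.39.

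Epicardial and mesothelial markers rose at both ages by amounts whose difference did not pass the test in limma. At P56 all 7 tested rose and at P1 6 of 7 did, and limma called none for the difference (median 0.31), with 0 at an unadjusted p under 0.05 and 1 higher by edgeR and by DESeq2. Their sum was 72.0 to 111 CPM in P1 sham, 175 to 324 in P1 MI, 7.19 to 27.1 in P56 sham and 33.5 to 63.0 in P56 MI, so that MI lay above sham at each age and both neonatal groups above both adult ones. The mesothelial surface protein Msln differed by 0.56 ± 0.52 (limma adjusted p 0.43) and the uroplakin Upk3b by -0.45 ± 0.47 (0.488). The standard errors do not allow these responses to be called equal.

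**Figure D5:**
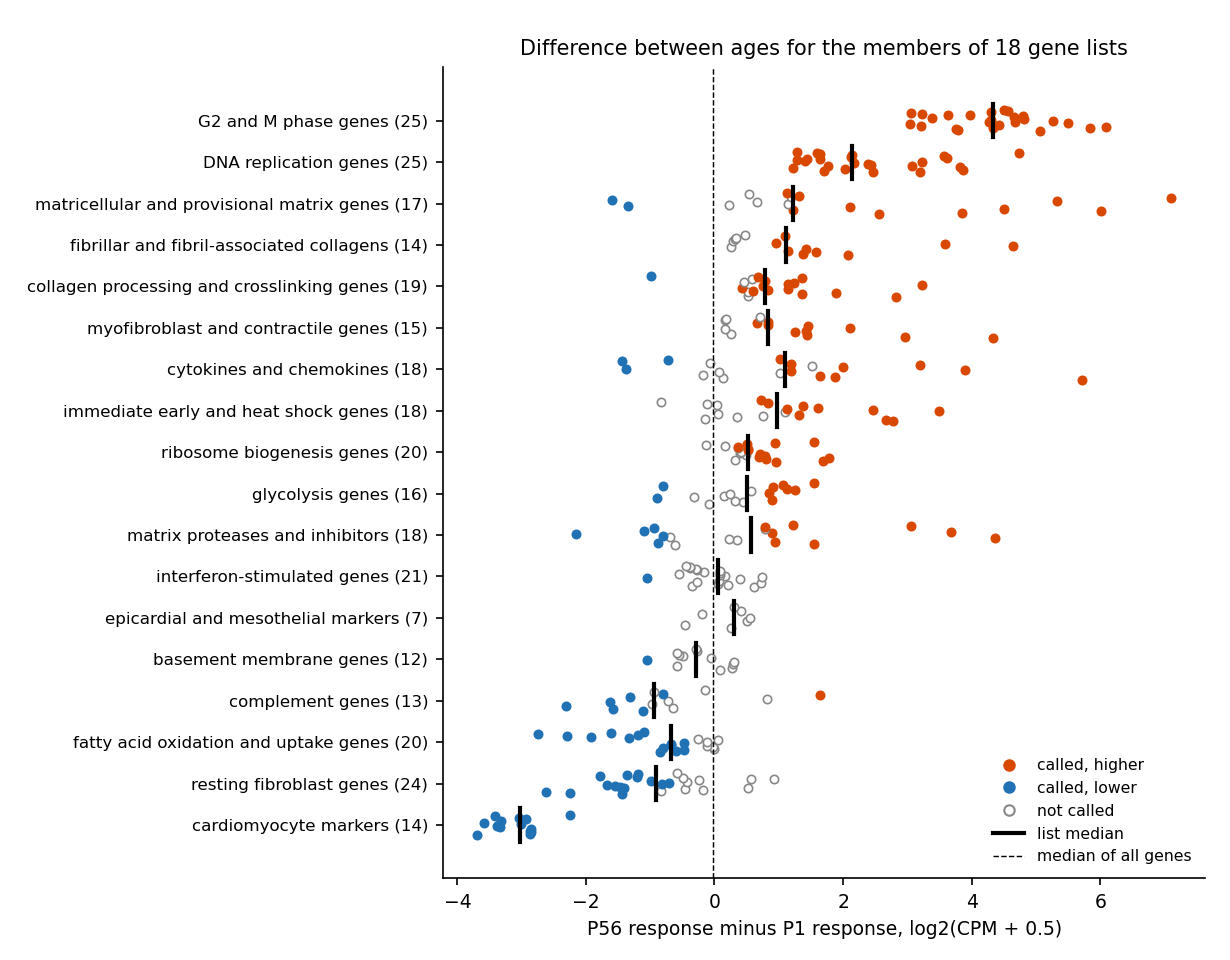
P56 response minus P1 response, as log2(CPM + 0.5), for the tested members of 18 gene lists, with the number tested in parentheses; each point is a gene, filled where limma called it higher or lower, black bars are list medians and the dashed line is the median of all genes (-0.02). All G2 and M phase and DNA replication genes lie to the right and all cardiomyocyte markers to the left, while the interferon-stimulated and epicardial lists straddle 0.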

How the data were processed

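The deposited table gives, for 20637 genes and 64 libraries, a signal per gene that the authors made with edgeR as CPM, read counts relative to a scaled library size. Per the submitters' processing notes Trimmomatic, STAR and HTSeq were also used, with mm10, GRCm38 and GRCh38 named; versions, settings and strand are not given in the sources used here. The gene length column, another deposited value, was not used. Dividing by the value of 1 read gave whole numbers for 100% of values (tolerance 0.01), so depth was known; floors cover counting error only. All columns mapped to samples by name. The 24 replicate pairs gave chi-squares of 7.36 to 656 per gene, a spread beyond counting error. Such a spread can be technical and does not show separate animals or pools. Each library was counted as 1 replicate.

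Genes reaching 1 CPM in 4 or more fibroblast libraries entered a fit of log2(value + 0.5) in limma 3.58.1 under R 4.3.3, with a variance trend and Benjamini-Hochberg adjustment, called at adjusted p under 0.05; all adjusted p-values printed are limma's. Comparisons across populations used all 64 libraries. edgeR 4.0.16 and DESeq2 1.42.0 on the recovered reads called 5100 and 5664 genes for the difference between ages. In simulated reads the limma fit recovered 69% of 2-fold and 99% of 4-fold differences with 5 false calls among 15563 genes. Only 100 genes of each size were changed, in the adult MI group and among genes averaging 5 CPM or more. No library was made to deviate, so these rates may not hold for the real libraries. Alternatives were another pseudocount, filter, scaling or tool, array weights, a replicate block, a 2-fold minimum, and leaving out libraries.

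Members and lists were chosen with earlier results of these data known, so list counts are descriptions. Named genes were the 12 largest differences each way among called genes of at least 5 CPM in a group, the 5 largest each way with opposite calls at both ages, and up to 4 called members per list by adjusted p; other members named beside a list count were chosen after their values were seen. Predicted genes and ribosomal RNA were left out, and a few genes the rule names are not reported here. Coordinates are the deposited ones (GRCm38); promoters come from RefSeq (GRCm38.p6).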

Additional observations from a re-analysis of the deposited data

Results flagged for a closer look

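The library furthest from its group was looked for among the 4 libraries of each group, for 32 genes named above and 6 list sums (152 groups). In 15 groups the gap to the nearest library was above the limit of Dixon's test relative to the group's range, and chance gives about 1 in 20. Adult sham replicate 2 was high for Mki67 (23.79 CPM), Top2a (14.61), Cdk1 (2.74), Uhrf1 (1.652) and the G2 and M phase sum (125.4). Adult MI replicate 2 was low for Mcm5 (26.73) and the replication sum (412) and high for C3 (4771) and Gpihbp1 (4.12). Neonatal sham replicate 4, one of the libraries rich in 18S RNA, was high for Ccl9 (1.907) and Unc13c (8.308). Single cases were Fn1 in adult MI replicate 3 (5040 CPM), Lox in neonatal sham replicate 3 (238.5), H19 in neonatal sham replicate 2 (1995) and Tagln in adult sham replicate 1 (10.73).

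The response to MI differed between the ages, by the test of the difference itself, for 4989 genes. That difference was itself unlike the one in endothelial cells for 512 genes, in leukocytes for 3525 and in cardiomyocytes for 2098.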

How the results depend on the processing

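Of 152 named genes called for the difference between ages, none changed direction in any of 30 settings in which it was tested; 140 were tested in all 30, and 118 of them were called in each. The difference was called for 2550 higher and 2439 lower genes, for 3849 and 3739 with array weights, and for 1019 and 914 with a 2-fold minimum as well; leaving out 1 library at a time gave 2100 to 3109 higher and 1864 to 3176 lower. With the 2-fold minimum the adult response kept 1129 and 745 calls of 3907 and 3961. The P1 counts were the least stable. Against 313 higher and 59 lower genes, array weights gave 826 and 558, the 5 CPM filter 161 and 33, the 2-fold minimum 159 and 18, and leaving out the libraries rich in 18S RNA 174 and 470; DESeq2 gave 160 lower. Leaving out 1 library gave 129 (without MI replicate 1) to 414 (without adult MI replicate 2) higher genes and 15 (without sham replicate 2) to 112 (without adult MI replicate 2) lower ones, and P1 sham replicates 1, 3 and 4 and MI replicates 3 and 4 also moved a P1 count by over 1.5 times. With array weights the comparisons with endothelial cells, leukocytes and cardiomyocytes gave 1625, 2920 and 2520 higher and 1603, 2864 and 3152 lower genes, against 316, 1710 and 841 higher and 196, 1815 and 1257 lower. The causes were not tested.

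Replicate numbers did not pair the libraries: same-numbered sham and MI libraries correlated at -0.31 to 0.06. With the replicate number as a block 2411 genes were higher and 2230 lower; with a block within each age the P1 response gave 199 higher genes. Low genes are limited by depth, since 3 reads are 0.102 to 0.409 CPM. With the spread shared over all 64 libraries fewer members of some lists were called, among them 2 higher TGF-beta family genes, 2 higher proteoglycan and elastic fibre genes, 9 lower fatty acid genes, no lower adhesion gene and no lower macrophage marker; array weights gave more, among them 10 higher TGF-beta family genes, 11 cholesterol synthesis genes and 8 higher oxidative phosphorylation genes.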
